A study of Mus musculus with 16 samples.

Results

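The genes described here are Stat5a, Stat5b, Cish, Socs1, Socs2, Socs3, Pim1, Pim2 and Bhlhe40, 9 of the 53465 genes in the count table, found by their symbols. The libraries hold RNA of ILC2, the group 2 innate lymphoid cells, which are tissue-resident lymphocytes that make type 2 cytokines, taken from the duodenum of untreated C57BL/6 mice kept free of specific pathogens. There were 4 libraries of each of 4 genotypes, all from mice 6 to 10 weeks old and all homozygous for Smart13, a reporter at Il13. The St2 KO mice were St2 -/- and Arg1 Yarg/Yarg, the Il25 KO mice were Il25 -/- and Arg1 Yarg/Yarg, the Alox5 KO mice were Alox5 -/- without Yarg, and the wild type (WT) mice carried Smart13 alone. ST2, the product of Il1rl1, binds IL-33, Il25 encodes a cytokine of epithelial tuft cells, and Alox5 encodes the enzyme that starts leukotriene synthesis. Each is deleted throughout the mouse, so the ILC2 were not the only cells affected. St2 KO and Il25 KO carry the same reporter alleles, while St2 KO and Il25 KO differ from Alox5 KO and WT by Yarg as well as by the deletion.

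Cytokines such as IL-2, IL-7 and thymic stromal lymphopoietin bind receptors whose Janus kinases (JAK) phosphorylate the transcription factors STAT5A and STAT5B, which then dimerise and bind DNA. STAT5 turns on its own brakes: CIS, encoded by Cish, and the SOCS proteins bind the receptors or kinases and damp the signal. It also raises Pim1 and Pim2, kinases that favour survival and growth, and in lymphocytes Bhlhe40, a repressor needed for normal cytokine output of T cells. IL-33 itself signals through MyD88 and NF-kB rather than through JAK and STAT5.

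Promoter sequence was examined because STAT5 binds a palindrome spelled TTCNNNGAA. RefSeq promoters of GRCm38.p6, 250 bases before to 50 after a start site, were held for 7 of the 9 genes in 10 entries. Socs2 and Bhlhe40 had no entry. On both strands, the motif was found in Cish, with 2 matches, and in Socs3, with 1, and in no entry of Stat5a, Stat5b, Socs1, Pim1 or Pim2. Of 32851 promoters in the table, 8.3% held at least 1 match and 0.457% held at least 2. The stretches below show the matches in capitals, Cish from chr9:107296639-107296698 on the + strand and Socs3 from chr11:117969492-117969540 on the - strand, each written 5′ to 3′.
Cish: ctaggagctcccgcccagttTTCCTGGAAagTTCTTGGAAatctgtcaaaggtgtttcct
Socs3: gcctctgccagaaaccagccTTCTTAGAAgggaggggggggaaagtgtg
The promoter of Pim1, which had the largest called change of the 9 genes, is shown as one that holds no match. It covers chr17:29490535-29490834 on the + strand, and the second Pim1 entry, chr17:29492835-29493134, had none either.
Pim1: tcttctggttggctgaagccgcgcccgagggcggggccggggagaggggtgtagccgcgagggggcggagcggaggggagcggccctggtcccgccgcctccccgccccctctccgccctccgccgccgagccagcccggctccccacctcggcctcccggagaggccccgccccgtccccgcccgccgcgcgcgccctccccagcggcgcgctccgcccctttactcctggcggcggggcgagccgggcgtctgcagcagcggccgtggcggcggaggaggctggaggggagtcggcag
The NF-kB (kappaB) motif was searched too, on both strands and with no position shared with a TTCNNNGAA match. It had 1 match, in the downstream of the Stat5a entries, and 8.46% of all promoters held it. A match is a string of letters and not a shown binding site.

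Each library held 2086864 to 3216937 gene counts in all, and trimmed-mean (TMM) scaling factors lay between 0.96 and 1.03. All 15 ILC2 markers, Gata3, Rora and Il17rb among them, were detected in every library. CPM below are counts scaled to 1000000 per library. The 7 T cell markers summed to 98.2 to 151 CPM in St2 KO, 75.3 to 127.7 in Il25 KO, 57.3 to 182.6 in Alox5 KO and 116.1 to 160.7 CPM in WT, most of it Cd3g (54.4 to 147.6 CPM), with Cd8b1 at 0 and Cd4 at 9 counts over all libraries. The 6 ILC1 and NK markers summed to 388 to 508 CPM in St2 KO, 340.2 to 559.5 in Il25 KO, 556 to 726 in Alox5 KO and 546 to 609 CPM in WT, mainly Gzma, with Eomes at 3 counts over all libraries. The 7 stromal and endothelial markers, nearly all of it Pecam1, summed to 95.1 to 210.9 CPM in St2 KO, 44.3 to 74.1 in Il25 KO, 124 to 153 in Alox5 KO and 131 to 178 CPM in WT, with Cdh5 at 0. Among mast cell and eosinophil markers, Cpa3 reached 15.8 CPM and Prg2 17.4 CPM, while Mcpt1, Mcpt2, Mcpt4 and Epx had no count in any library. The part of these transcripts in the results was not tested. B and plasma cell transcripts were present, with a summed level of 1053 to 2408 CPM in St2 KO, 2272 to 3082 in Il25 KO, 991.7 to 3114 in Alox5 KO and 2671 to 3080 CPM in WT, lowest in Alox5 KO 1, Alox5 KO 2 and St2 KO 1. The sample codes formed 3 sets: TS held replicates 1 and 2 of every genotype, TY replicates 3 and 4 of St2 KO and Il25 KO, and TT replicates 3 and 4 of Alox5 KO and WT. The 4 TY libraries were read as female (982 to 1682 counts of Xist) and the 12 others as male (at most 7). Alox5 had 9.84 ± 3.39 CPM in Alox5 KO and 96.2 ± 32.8 CPM in WT. Il1rl1 reached 172.9 ± 37.6 CPM in St2 KO, against 215.5 ± 34.7 CPM in WT, and Il25 had no count in any library, so these counts check neither of the other labels (a count over all exons does not show a partial deletion). The labels do not say whether libraries came from separate mice, so p-values measure the spread between libraries.

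All 9 genes passed the filter on low counts and were tested among 11742 genes by edgeR (quasi-likelihood F test) in 1 model of genotype and code set over all 16 libraries. A gene is called where its Benjamini-Hochberg adjusted p over all tested genes is under 0.05. Levels are CPM from the column totals (mean ± SD, n = 4), and ± beside a log2 fold change is its SE.

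Of the 9 genes, Pim1 and Bhlhe40 were lower in St2 KO and the other 7 were not called in any comparison. Both fell against Il25 KO and against Alox5 KO, while against WT their fitted differences were of the same direction and not called. No gene was called between Il25 KO, Alox5 KO and WT. Against Il25 KO, 2 of 9 were called in St2 KO, both lower, where 1.24% of all tested genes were called, 0.852% lower and 0.392% higher. Against Alox5 KO, 2 of 9 were called in St2 KO, both lower, beside 0.485% of all genes called, 0.307% called lower and 0.179% called higher. For St2 KO against WT, 0 of 9 were called by edgeR beside 0.298% of all genes (0.187% lower and 0.111% higher), with 3 of 9 (Cish, Pim1 and Bhlhe40) at an unadjusted p under 0.05, beside 7.49% of all genes, and DESeq2 called 2 (Pim1 and Bhlhe40). The count at an unadjusted p under 0.05 was 5 of 9 against Il25 KO, beside 11.25% of all genes, and 3 of 9 against Alox5 KO, beside 11.5%. For Il25 KO against WT, 0 of 9 were called by edgeR beside 0.417% of all genes (0.281% lower, 0.136% higher), and for Alox5 KO against WT 0 of 9 beside 0.102% (0.0681% lower, 0.0341% higher). For Il25 KO against Alox5 KO, 0 of 9 were called beside 0.392% (0.221% lower, 0.17% higher). In each of these, 0 of 9 had an unadjusted p under 0.05 by edgeR and DESeq2 also called 0. In the test of any difference among the 4 genotypes, 2 of 9 were called, Pim1 (adjusted p = 0.004041) and Bhlhe40 (adjusted p = 0.01115), beside 1.17% of all genes. The comparisons of St2 KO share the St2 KO libraries, so their results are not independent of each other. St2 KO shares only the TS set with Alox5 KO and WT, and there the St2 deletion cannot be told apart from the Yarg allele.

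**Figure D1:**
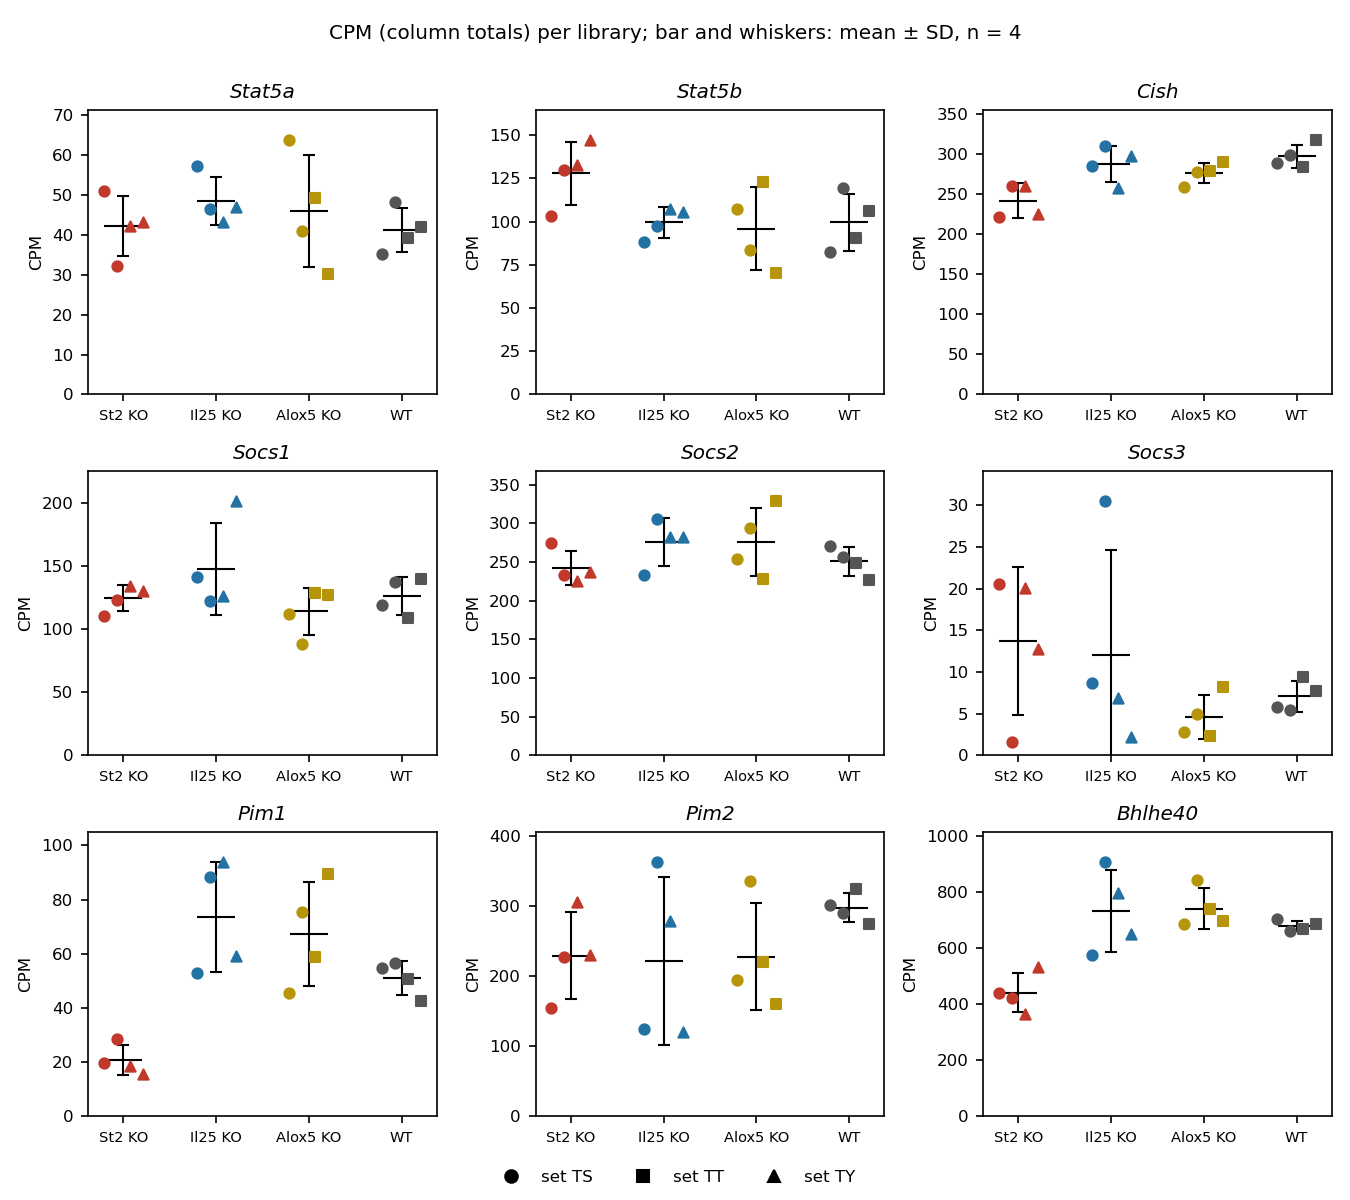
Level of each of the 9 genes in CPM from column totals (y axes from 0), by genotype, with 1 point per library shaped by sample-code set and bars for mean ± SD (n = 4); the Socs3 whisker of Il25 KO reaches below 0 and is cut at the axis. Pim1 and Bhlhe40 lie lower in all 4 St2 KO libraries than in the 12 others, and the points of the other 7 genes overlap between St2 KO and the 12 others.

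Per length of exon, the 9 genes spanned a wide range over the 16 libraries. Bhlhe40 was the most abundant at 138.0 ± 31.8 CPM per kilobase of exon, followed by Pim2 at 87.3 ± 27.4, Socs1 at 44.2 ± 8.17 and Cish at 42.9 ± 4.21. Below them came Socs2 at 27.4 ± 3.29, Stat5b at 19.1 ± 3.74, Pim1 at 15.8 ± 7.40, Stat5a at 6.24 ± 1.21 and Socs3 at 3.24 ± 2.77 CPM per kilobase of exon. The neighbours Socs1 and Cish, and Stat5b and Pim1, differed by less than these spreads. In St2 KO the level of Pim1 was 6.14 ± 1.65 CPM per kilobase, close to the 5.92 ± 1.07 of Stat5a, while in WT it was 15.2 ± 1.88 beside 5.77 ± 0.771 for Stat5a. Exon lengths count every annotated exon of a gene, including exons these cells may not use.

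The transcription factor genes lie side by side on chromosome 11 and neither was called in any comparison. Stat5a (ENSMUSG00000004043, GRCm38 chromosome 11, 100859351 to 100885169, + strand) had 50.9, 32.3, 42.4 and 43.4 CPM in St2 KO, 57.3, 46.6, 43.2 and 47.1 CPM in Il25 KO, 63.7, 41.0, 49.2 and 30.2 CPM in Alox5 KO, and 35.1, 48.2, 39.1 and 42.1 CPM in WT. All 4 genotypes overlapped, and the widest spread was within Alox5 KO. The log2 fold change of Stat5a was -0.25 ± 0.202 in St2 KO over Il25 KO and -0.04 ± 0.253 in St2 KO over WT, with a 95% interval of -0.57 to 0.49 for the second.

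Stat5b (ENSMUSG00000020919, chromosome 11, 100780731 to 100850724, - strand) was the more abundant of the pair in each genotype, at 23.1 ± 3.29 CPM per kilobase of exon in St2 KO beside 5.92 ± 1.07 for Stat5a. It had 103, 129.6, 133 and 147 CPM in St2 KO, 87.9, 97.6, 108 and 105 CPM in Il25 KO, 107, 83.5, 123 and 70.0 CPM in Alox5 KO, and 82.3, 119.5, 90.7 and 106 CPM in WT. St2 KO 2, 3 and 4 were above all 12 libraries of the other genotypes, and St2 KO 1 was inside the range of each. Its log2 fold change was 0.32 ± 0.148 in St2 KO over Il25 KO (edgeR adjusted p = 0.4319, unadjusted p = 0.04513) and 0.23 ± 0.185 in St2 KO over WT (adjusted p = 0.834). The genes share sequence: 8.21% of the 50-base stretches of Stat5a transcripts occur in Stat5b and 11.0% of those of Stat5b in Stat5a, where counting can split or lose reads. A further 72 exonic bases of Stat5a overlap Stat3 on the opposite strand, which the library kit does not separate.

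Of the feedback inhibitors, Cish was the steadiest and was somewhat lower in St2 KO, without passing the test. Cish (ENSMUSG00000032578, chromosome 9, 107296026 to 107302784, + strand), whose promoter holds the paired matches printed above, encodes CIS, which binds phosphorylated cytokine receptors. It had 221, 260.2, 260.1 and 225 CPM in St2 KO, 285, 309.6, 257 and 297 CPM in Il25 KO, 259, 278, 278 and 289 CPM in Alox5 KO, and 289, 298, 283 and 317 CPM in WT. Every St2 KO library was below every WT library, and St2 KO overlapped Il25 KO and Alox5 KO. Its mean was 241.6 ± 21.4 CPM in St2 KO, 287.3 ± 22.2 in Il25 KO, 276.1 ± 12.7 in Alox5 KO and 296.8 ± 14.6 CPM in WT. The log2 fold change was -0.29 ± 0.087 in St2 KO over Il25 KO (adjusted p = 0.1323), -0.17 ± 0.107 over Alox5 KO (adjusted p = 0.5577) and -0.26 ± 0.107 over WT (adjusted p = 0.5938). For St2 KO over WT its 95% interval ran from -0.48 to -0.03. An overlap of 740 exonic bases with the antisense genes Gm17040 and Gm17041 could not be separated by strand.

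Socs2 and Socs1 overlapped between all genotypes and were not called. Socs2 (ENSMUSG00000020027, chromosome 10, 95385362 to 95417180, - strand), whose protein restrains growth hormone and STAT5 signalling, had 275, 233.1, 225 and 237 CPM in St2 KO, 233.1, 306, 282 and 283 CPM in Il25 KO, 254, 294, 228 and 328 CPM in Alox5 KO, and 270.4, 257, 249 and 227 CPM in WT. Each genotype spanned part of the range of the others. Its log2 fold change was -0.23 ± 0.122 in St2 KO over Il25 KO (edgeR adjusted p = 0.503), -0.23 ± 0.149 over Alox5 KO and -0.08 ± 0.149 over WT, with an interval of -0.39 to 0.23 for the last.

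Socs1 (ENSMUSG00000038037, chromosome 16, 10782240 to 10785536, - strand), whose protein inhibits the Janus kinases directly, had 111, 124, 135 and 131 CPM in St2 KO, 142, 123, 127 and 202 CPM in Il25 KO, 112, 88.5, 129 and 127 CPM in Alox5 KO, and 119.7, 137, 109 and 140.1 CPM in WT. Il25 KO 4 stood above every other library and Alox5 KO 2 below every other, and the genotypes overlapped. The log2 fold change was -0.29 ± 0.137 in St2 KO over Il25 KO (edgeR adjusted p = 0.4428) and 0.05 ± 0.176 in St2 KO over Alox5 KO (adjusted p = 0.9325).

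Socs3 was scarce and erratic. Socs3 (ENSMUSG00000053113, chromosome 11, 117966079 to 117970047, - strand) encodes the inhibitor known best for damping signals of IL-6 and other gp130 cytokines. It had 20.6, 1.55, 20.1 and 12.7 CPM in St2 KO, 8.65, 30.4, 6.92 and 2.15 CPM in Il25 KO, 2.79, 5.02, 2.38 and 8.15 CPM in Alox5 KO, and 5.79, 5.40, 9.41 and 7.76 CPM in WT. These rest on 5 to 83 counts per library, with the low end in St2 KO 2 and the high end in Il25 KO 2, so libraries of 1 genotype differed more than the genotypes did. The log2 fold change was 2.05 ± 0.911 in St2 KO over Alox5 KO (adjusted p = 0.4049) and 1.40 ± 0.849 in St2 KO over WT (adjusted p = 0.7567), and a change of either sign against WT lies within its interval of -0.38 to 3.19.

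The Pim kinases parted: Pim1 was low in St2 KO and Pim2 was not called. Pim1 (ENSMUSG00000024014, chromosome 17, 29490753 to 29496112, + strand), a serine-threonine kinase controlled largely by its transcript level, had 19.6, 28.6, 18.6 and 15.8 CPM in St2 KO, 53.0, 88.4, 93.7 and 59.3 CPM in Il25 KO, 45.4, 75.4, 58.7 and 89.6 CPM in Alox5 KO, and 54.8, 56.7, 50.8 and 42.5 CPM in WT. The highest St2 KO library was below the lowest of the 12 others, while Il25 KO, Alox5 KO and WT overlapped. Its mean was 20.7 ± 5.53 CPM in St2 KO, 73.6 ± 20.4 in Il25 KO, 67.3 ± 19.3 in Alox5 KO and 51.2 ± 6.31 CPM in WT. Pim1 fell by 1.86 ± 0.276 on the log2 scale in St2 KO against Il25 KO, a level 3.62-fold lower (edgeR adjusted p = 0.00081), and by 1.65 ± 0.336 against Alox5 KO (adjusted p = 0.02598).

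Against WT the log2 fold change of Pim1 in St2 KO was -1.26 ± 0.344, with a 95% interval of -1.99 to -0.54, which did not pass over all genes (edgeR adjusted p = 0.2369, unadjusted p = 0.001744). DESeq2 gave -1.24 and a call (adjusted p = 0.0413), as did edgeR without the code set term (-1.31, adjusted p = 0.03817). Over WT, Il25 KO had 0.59 ± 0.299 and Alox5 KO 0.39 ± 0.247, neither called. Within the TS set, the mean of both libraries was 24.1 CPM in St2 KO, 70.7 in Il25 KO, 60.4 in Alox5 KO and 55.8 CPM in WT, and within the TY set it was 17.2 CPM in St2 KO and 76.5 CPM in Il25 KO. The difference from Il25 KO thus had the same direction in both sets, with log2 fold changes of -1.59 (adjusted p = 0.2066) fitted in TS alone and -2.18 (adjusted p = 0.03275) in TY alone. Pim1 shares 488 exonic bases with Gm26885 on the opposite strand, and none of its 50-base stretches occurs in Pim2 or Pim3.

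Pim2 (ENSMUSG00000031155, chromosome X, 7878262 to 7883432, + strand), the second kinase of the family, varied widely within the knockout genotypes and little within WT. It had 154, 227, 306 and 229.8 CPM in St2 KO, 125, 362, 279 and 121 CPM in Il25 KO, 194, 336, 219.7 and 160.0 CPM in Alox5 KO, and 302, 289.6, 324 and 275 CPM in WT. The 4 WT libraries lay close together, and Il25 KO split into a low pair (libraries 1 and 4) and a high pair (libraries 2 and 3). In Il25 KO the libraries of the high pair were also the higher ones for Pim1 and Bhlhe40. The log2 fold change of Pim2 over WT was -0.56 ± 0.418 in St2 KO (edgeR adjusted p = 0.8221), -0.55 ± 0.410 in Il25 KO (adjusted p = 0.7604) and -0.38 ± 0.339 in Alox5 KO (adjusted p = 0.8368). Summed B and plasma cell transcripts were 2580 and 2472 CPM in the low pair of Il25 KO and 2272 and 3082 CPM in the high pair, and their part in the Pim2 values was not tested. Pim2 is X-linked, and a part of sex in its values was not tested. By code set, St2 KO averaged 268 CPM in TY and 191 CPM in TS, and Il25 KO 199.9 CPM in TY and 243 CPM in TS.

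Bhlhe40 (ENSMUSG00000030103, chromosome 6, 108660629 to 108666925, + strand) was the most abundant of the 9 genes per length and the second to fall in St2 KO. It had 441, 424, 367 and 535 CPM in St2 KO, 578, 907, 797 and 649.9 CPM in Il25 KO, 686, 845, 739 and 699.6 CPM in Alox5 KO, and 704, 661, 671 and 686 CPM in WT. Every St2 KO library was below all 12 others, though St2 KO 4 came close to the lowest of them, Il25 KO 1. Its mean was 441.9 ± 69.8 CPM in St2 KO, 733.0 ± 147.6 in Il25 KO, 742.3 ± 72.0 in Alox5 KO and 680.5 ± 18.8 CPM in WT. Bhlhe40 fell by 0.78 ± 0.133 on the log2 scale in St2 KO against Il25 KO, a level 1.72-fold lower (edgeR adjusted p = 0.003179), and by 0.80 ± 0.163 against Alox5 KO (adjusted p = 0.02598).

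Against WT the log2 fold change of Bhlhe40 in St2 KO was -0.66 ± 0.163 (edgeR adjusted p = 0.1446, unadjusted p = 0.000714), with an interval of -1.01 to -0.32. DESeq2 (adjusted p = 0.01475) and edgeR without the code set term (adjusted p = 0.02305) called it, with log2 fold changes of -0.67 and -0.63. Over WT, Bhlhe40 had 0.11 ± 0.160 in Il25 KO and 0.14 ± 0.131 in Alox5 KO. Within the TS set the mean was 432 CPM in St2 KO, 742 in Il25 KO, 765 in Alox5 KO and 683 CPM in WT, and within TY it was 451 CPM in St2 KO and 724 CPM in Il25 KO. The direction of the difference from Il25 KO was the same in both sets, and neither passed when fitted alone (-0.84, adjusted p = 0.243 in TS; -0.72, adjusted p = 0.1935 in TY). Bhlhe40 shares 118 exonic bases with the antisense gene 0610040F04Rik.

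**Figure D2:**
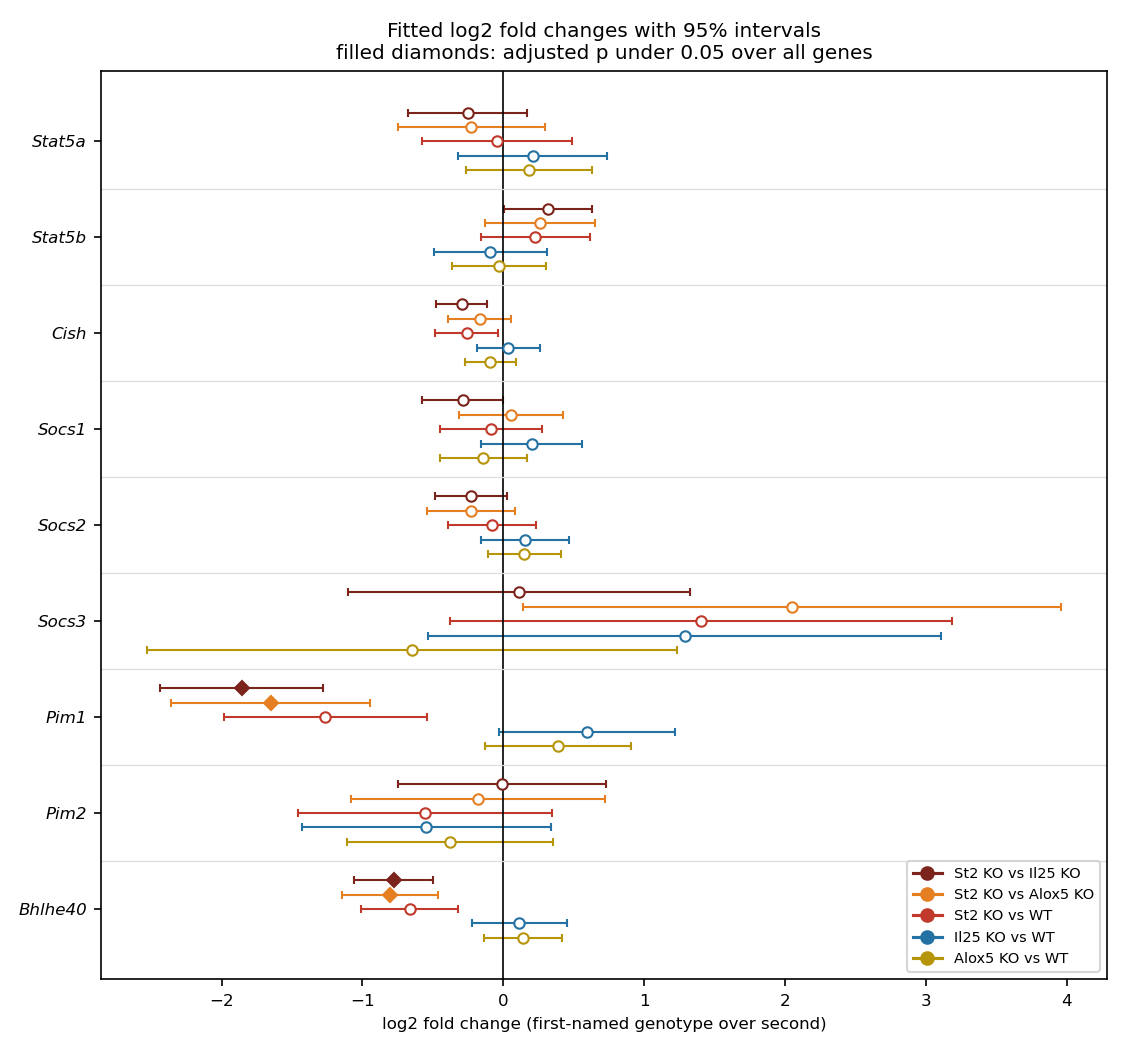
Fitted log2 fold change (x axis, first-named genotype over second) of each gene in 5 comparisons, with 95% intervals; filled diamonds mark an adjusted p under 0.05 over all tested genes. Pim1 and Bhlhe40 lie left of 0 in all 3 comparisons of St2 KO and are called against Il25 KO and Alox5 KO, and the Socs3 intervals are the widest.

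Counting libraries without a model gave the same pair where St2 KO was set against the 12 others. It used the same libraries as the fitted test and is not independent of it. Pim1 and Bhlhe40 were lower in all 4 St2 KO libraries than in the 12 others, 2 of 9 genes beside 0.784% of all tested genes, and no gene of the 9 was higher in all 4, beside 0.324%. St2 KO lay below WT without overlap for 3 of 9 (Cish, Pim1 and Bhlhe40), beside 4.84% of all genes, below Il25 KO for 2 of 9 beside 2.62%, and below Alox5 KO for 2 of 9 beside 5.1%. St2 KO lay above them without overlap for 0 of 9, beside 3.63% of all genes against WT, 3.33% against Il25 KO and 4.59% against Alox5 KO. Between Il25 KO and WT, Alox5 KO and WT, and Il25 KO and Alox5 KO, no gene of the 9 separated in either direction, where 4.23% (lower) and 2.55% (higher), 2.08% and 1.76%, and 3.62% and 2.32% of all genes did. The median log2 fold change over the 9 genes was -0.25 in St2 KO over Il25 KO, -0.18 over Alox5 KO and -0.09 over WT, beside 0.01 over all tested genes in each. In bulk libraries, fewer cells that express a gene and less RNA of it per cell cannot be told apart.

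**Figure D3:**
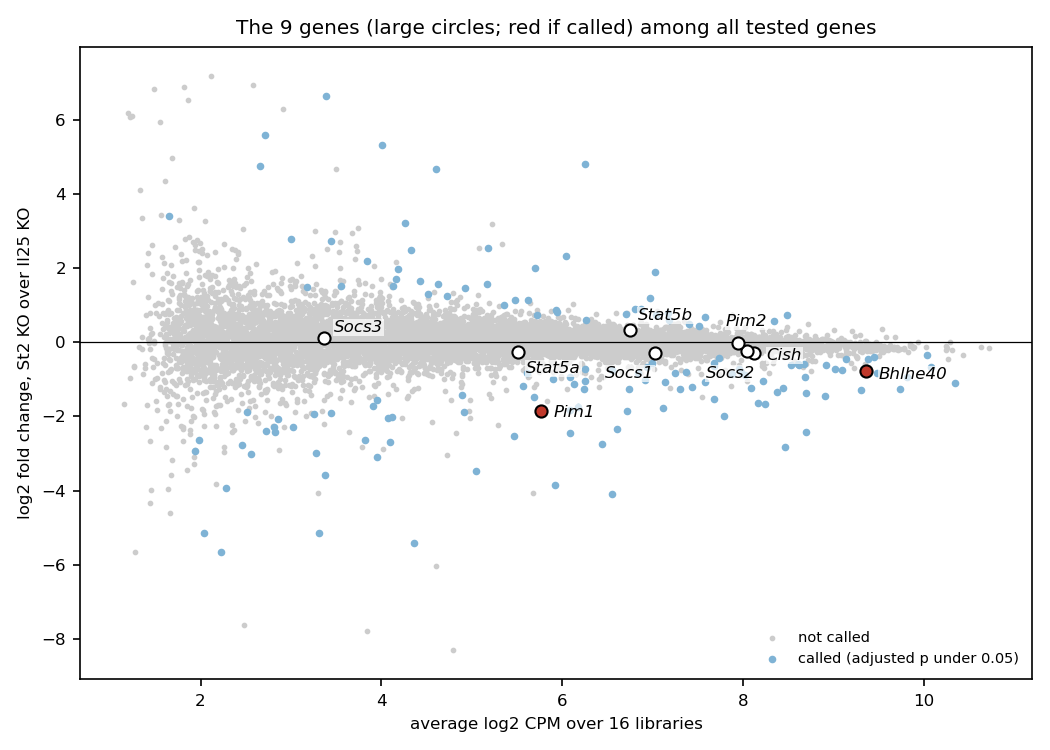
Log2 fold change of St2 KO over Il25 KO (y axis) against average log2 CPM over 16 libraries (x axis) for all tested genes; blue points passed an adjusted p of 0.05, and the 9 genes are large circles, red where called. Pim1 at -1.86 and Bhlhe40 at -0.78 are red, and the other 7 lie between -0.29 and 0.32.

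The strength of the calls differed between comparisons. St2 KO and Il25 KO share both code sets and all reporter alleles. Between St2 KO and Il25 KO, Pim1 and Bhlhe40 were called in every one of 16 fits with 1 library left out. The edgeR adjusted p was 0.000206 to 0.005906 for Pim1 and 0.000393 to 0.02345 for Bhlhe40. Those fits that left out an Alox5 KO or WT library kept all libraries of both compared genotypes, so they test this difference less directly. Between St2 KO and Alox5 KO, Pim1 was lost in 8 of the 16 fits and Bhlhe40 in 7. Both calls were lost there without St2 KO 1, St2 KO 2, Alox5 KO 2, WT 1 or WT 3, in which fits the count was 0, and it was 1 without St2 KO 3, St2 KO 4, Il25 KO 3, Alox5 KO 4 or WT 2. Log2 fold changes in those 16 fits stayed between -1.93 and -1.50 for Pim1 and between -0.89 and -0.69 for Bhlhe40. Between St2 KO and WT, leaving out Il25 KO 2 gave a call of Bhlhe40 (-0.75, adjusted p = 0.0125), and no other fit gave a call. Without Alox5 KO 1, Alox5 KO 2 and St2 KO 1, the libraries lowest in B and plasma cell transcripts, St2 KO over Il25 KO had -1.82 for Pim1 (adjusted p = 0.00672) and -0.78 for Bhlhe40 (adjusted p = 0.02552), and St2 KO over Alox5 KO had -2.02 (adjusted p = 0.4649) and -0.76 (adjusted p = 0.6277).

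**Figure D4:**
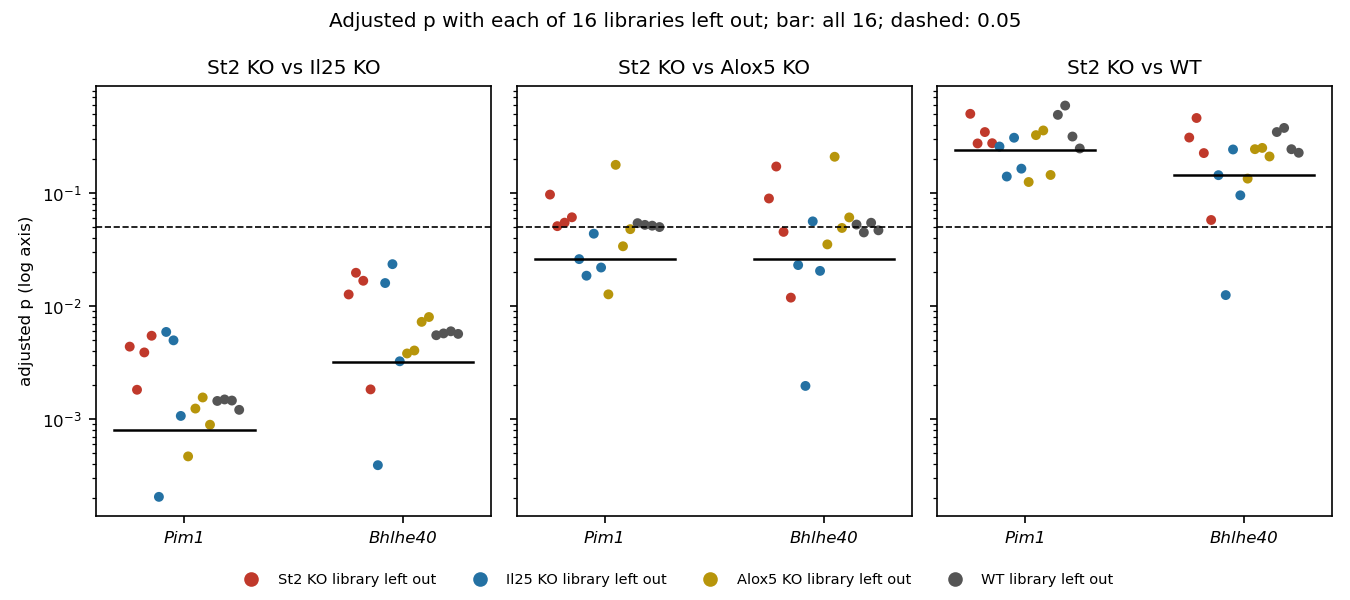
Adjusted p (log axis) of Pim1 and Bhlhe40 in the 3 comparisons of St2 KO when each of 16 libraries is left out in turn, coloured by the genotype of that library; black bars show the fit of all 16 and the dashed line 0.05. All points lie under the line against Il25 KO, about evenly on both sides of it against Alox5 KO, and all but 1 above it against WT.

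Across the 16 libraries Pim1 and Bhlhe40 varied together, with a Pearson r of 0.874 between their log2 CPM, and 0.424 once the mean of each genotype was subtracted. The 4 St2 KO libraries lie apart for both genes, and both values of each point come from the same library and so share its depth. Cish had r = 0.753 with Pim1 and 0.632 with Bhlhe40 over the 16 libraries, and 0.366 and -0.046 after the genotype means were subtracted. Stat5b ran the other way, with -0.61 to Pim1 over 16 libraries and -0.297 within genotypes. Socs2 had 0.648 with Pim1 over 16 libraries and 0.659 within genotypes, and Stat5a had -0.024 and -0.735. Within genotypes, Socs2 and Stat5a thus lay further from 0 with Pim1 than Bhlhe40 did. Pim2 had 0.149 with Pim1 over 16 libraries and 0.47 within genotypes.

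Among tested genes outside the 9 whose mean log2 CPM was 3 or more, those whose log2 CPM followed Pim1 most closely over the 16 libraries were Ier5, an immediate early gene (r = 0.955), Nfkbiz, an atypical inhibitor of the NF-kB family (0.939), and Tnfaip3, which encodes the ubiquitin-editing brake A20 (0.938). Those most like Bhlhe40 were Nfkbid, a relative of Nfkbiz (0.922), Nfkbiz (0.908) and Map3k8, a kinase of the NF-kB and MAP kinase pathways (0.899). With the genotype means subtracted, r was 0.792, 0.62 and 0.575 for Ier5, Nfkbiz and Tnfaip3 with Pim1, and 0.723, 0.706 and 0.68 for Nfkbid, Nfkbiz and Map3k8 with Bhlhe40. Because these genes were chosen for likeness over libraries in which St2 KO lay apart, their lower level in St2 KO follows from the choice. Their log2 fold changes in St2 KO over Il25 KO were -1.63, -1.26, -1.10, -2.81 and -1.85 for Ier5, Nfkbiz, Tnfaip3, Nfkbid and Map3k8. Ier5 and Nfkbiz also belong to the immediate early list described next.

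The summed level of immediate early and dissociation transcripts was, like the levels of Pim1 and Bhlhe40, lowest in St2 KO. The list held 35 genes such as Fos, Egr1 and Zfp36 that respond within minutes to stimulation or to tissue digestion. The summed level of the list was 8085 to 8892 CPM in St2 KO, 12100 to 14720 in Il25 KO, 11660 to 12980 in Alox5 KO and 11340 to 12790 CPM in WT. St2 KO was thus lower for the list as for Pim1 and Bhlhe40, with no overlap. Of 34 tested, 16 were called lower in St2 KO against Il25 KO, 10 against Alox5 KO and 9 against WT, beside 0.852%, 0.307% and 0.187% of all tested genes called lower, and none was called higher. The median log2 fold change of the list was -0.62, -0.48 and -0.49 in those comparisons. Of the 34, 29, 31 and 26 were below 0, beside 48.02%, 48.36% and 48.25% of all genes. The heat shock genes of the list did not all fall. Against Il25 KO, Alox5 KO and WT, St2 KO had 1.39, 2.59 and 1.43 for Hspa1a and 0.06, 1.63 and 0.82 for Hspa1b, none called. Egr1 had 9.11 ± 6.87 CPM in St2 KO, 128 ± 46.1 in Il25 KO, 57.4 ± 30.4 in Alox5 KO and 40.95 ± 12.92 CPM in WT. It was not called in St2 KO against WT (edgeR adjusted p = 0.1626). Zfp36, whose protein destabilises cytokine transcripts, had 102 ± 26.1 CPM in St2 KO, 526.6 ± 10.5 in Il25 KO, 489.7 ± 57.1 in Alox5 KO and 515.2 ± 42.0 CPM in WT. Within the Il25 KO group, libraries 2 and 3 had the higher sums, 14000 and 14720 CPM, and also the higher levels of Pim1 and Bhlhe40, against 12860 and 12100 CPM in libraries 1 and 4. Within St2 KO this was not so for Bhlhe40. St2 KO 3 had the highest sum of that group, 8892 CPM, with its lowest Bhlhe40, 367 CPM. St2 KO 4 had the lowest sum, 8085 CPM, with the highest Bhlhe40, 535 CPM, and the lowest Pim1, 15.8 CPM. The highest Pim1 of that group, 28.6 CPM, was in St2 KO 2, at a sum of 8141 CPM. The part of this list in the results for Pim1 and Bhlhe40 was not tested.

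**Figure D5:**
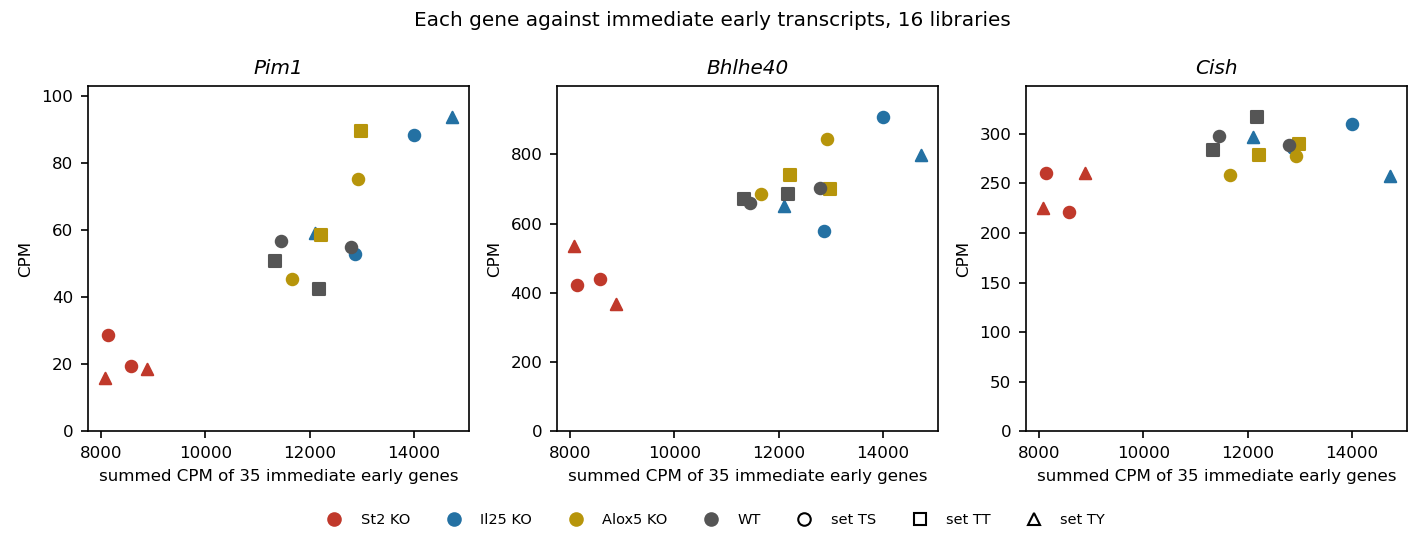
Level of Pim1, Bhlhe40 and Cish (y axes, CPM from 0) against the summed CPM of 35 immediate early and dissociation genes (x axis, not from 0), with 1 point per library coloured by genotype and shaped by code set. The 4 St2 KO libraries, at 8085 to 8892 CPM of the list, lie lowest and leftmost for Pim1 and Bhlhe40, and overlap other genotypes in height for Cish.

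No gene upstream of STAT5 was called. Of 14 receptor and kinase genes 12 were tested, and none was called in any of the 6 comparisons. The count at an unadjusted p under 0.05 by edgeR was 3 of 12 in St2 KO against Alox5 KO, beside 11.5% of all genes. It was 2 of 12 in St2 KO against Il25 KO, beside 11.25%, and 1 of 12 in each other comparison, beside 7.17% to 9.37%. In St2 KO, 10 of 12 were below 0 against Il25 KO, beside 48.02% of all genes. The count below 0 was 7 of 12 against Alox5 KO, beside 48.36%, and 10 of 12 against WT, beside 48.25%. Il2ra came nearest to a call, in St2 KO over Il25 KO (log2 fold change -0.38 ± 0.103, edgeR adjusted p = 0.0871). Il7r, a receptor chain shared by IL-7 and thymic stromal lymphopoietin, had 1164 ± 116 CPM in St2 KO, 1207 ± 114 in Il25 KO, 1279 ± 169 in Alox5 KO and 1163 ± 71.4 CPM in WT. Il2ra, the high-affinity chain of the IL-2 receptor, had 546 ± 74.2 CPM in St2 KO, 687 ± 29.7 in Il25 KO, 627 ± 103 in Alox5 KO and 567 ± 33.8 CPM in WT, and the kinase gene Jak1 had 584 ± 20.0 CPM in St2 KO, 619.7 ± 36.4 in Il25 KO, 564 ± 25.8 in Alox5 KO and 595 ± 17.6 CPM in WT. The widest log2 fold changes against WT were those of Il2rb, a chain of the IL-2 and IL-15 receptors, 0.50 in St2 KO (edgeR adjusted p = 0.6049) and 0.70 in Il25 KO (adjusted p = 0.2506).

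Stat6, the transcription factor of IL-4 and IL-13 signalling, had 230.4 ± 9.23 CPM in St2 KO, 246 ± 33.1 in Il25 KO, 183 ± 39.4 in Alox5 KO and 212 ± 23.98 CPM in WT, and was not called in any comparison. A list of 16 other brakes on JAK-STAT and related signals, all of them tested, had no call in any comparison. Of the 16, 1 to 4 had an unadjusted p under 0.05 by edgeR, beside 7.17% to 11.5% of all genes. The count of 4 was in Il25 KO against WT, beside 9.3%. Spry1, an inhibitor of receptor tyrosine kinase signals, came nearest, in St2 KO over Il25 KO (log2 fold change 1.03, edgeR adjusted p = 0.06976). It had 75.0 ± 23.5 CPM in St2 KO, 35.5 ± 6.49 in Il25 KO, 72.6 ± 16.5 in Alox5 KO and 90.4 ± 32.9 CPM in WT. Il25 KO was thus the low group, with log2 fold changes over WT of -1.21 in Il25 KO (adjusted p = 0.1759) and -0.18 in St2 KO (adjusted p = 0.9299).

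Among relatives of the 9 genes, 2 of 5 tested were called lower in St2 KO against Il25 KO, beside 0.852% of all tested genes. None was called in the other comparisons. Socs5, a SOCS protein gene with a long amino-terminal region, fell by 0.84 ± 0.190 on the log2 scale (edgeR adjusted p = 0.03335), with 72.4 ± 14.2 CPM in St2 KO and 126 ± 40.3 CPM in Il25 KO. Socs5 had 142 ± 5.34 CPM in Alox5 KO and 112 ± 24.2 CPM in WT, and against these the log2 fold changes of St2 KO were -0.82 (adjusted p = 0.1783) and -0.47 (adjusted p = 0.6678). Pim3, the third Pim kinase, fell by 0.56 ± 0.136 (adjusted p = 0.0474), with 179 ± 26.2 CPM in St2 KO and 257 ± 41.0 CPM in Il25 KO. Its level in St2 KO was close to the 183 ± 25.3 CPM of Alox5 KO and the 188 ± 35.3 CPM of WT. Socs4, Socs6 and Socs7 were not called.

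Reported STAT5 targets outside the 9 genes showed 1 call over the 6 comparisons, in St2 KO against Alox5 KO, where 0.307% of all tested genes were called lower. Of 26 such genes 24 were tested, and Id2, a transcriptional regulator required for innate lymphoid cells, was lower in St2 KO than in Alox5 KO by 0.56 ± 0.117 on the log2 scale (edgeR adjusted p = 0.03277), with 437 ± 56.7 CPM in St2 KO, 552 ± 47.3 in Il25 KO, 633 ± 55.1 in Alox5 KO and 616 ± 24.9 CPM in WT. For St2 KO against Il25 KO, 0 of 24 were called and 14 of 24 had an unadjusted p under 0.05, beside 11.25% of all tested genes, with 19 of 24 below 0, beside 48.02% of all genes, and a median log2 fold change of -0.30. Id2 (-0.38, adjusted p = 0.05733), Prf1, which encodes perforin (-0.67, adjusted p = 0.06172), and Gadd45g (-1.21, adjusted p = 0.08971) came nearest there. Prf1 had 99.15 ± 36.3 CPM in St2 KO, 150.7 ± 9.33 in Il25 KO, 108.7 ± 33.6 in Alox5 KO and 92.7 ± 3.93 CPM in WT. Il25 KO was thus the high group for Prf1, and St2 KO over WT had 0.11 (edgeR adjusted p = 0.9431). In St2 KO over Il25 KO, Myc and the survival gene Mcl1 had -0.42 and -0.36, and Bcl2 had -0.15 ± 0.138. Icos, a costimulatory receptor, went the other way with 0.36 ± 0.117, and none of them was called. Against WT, 17 of 24 were below 0 in St2 KO with a median of -0.19, beside 48.25% of all genes below 0, and 4 had an unadjusted p under 0.05, beside 7.49% of all genes. In Il25 KO over WT the median of these genes was 0.09, with 7 of 24 at an unadjusted p under 0.05 beside 9.3% of all genes, and in Alox5 KO over WT it was 0.01, with 4 of 24 beside 7.17%. In St2 KO over Alox5 KO the median was -0.0986, with 15 of 24 below 0, beside 48.36%. There 4 of 24 had an unadjusted p under 0.05, beside 11.5%. In Il25 KO over Alox5 KO the median was 0.25, with 6 of 24 below 0, beside 49.2%. There the count at an unadjusted p under 0.05 was 3 of 24, beside 9.37%.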

How the data were processed

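Whole-number gene counts of all 16 libraries, scaled for neither depth nor length, were deposited by the authors in 1 table. Build GRCm38 and the tools HTSeq 0.4.1, STAR 2.4.2a, FastQC 0.11.3 and Picard 1.134 are named per the submitters' processing notes, without their settings. Per the labels' protocols, Liberase TM was used to digest the first 5 cm of the small intestine, cells were then sorted, and libraries were made with Nextera XT, which does not mark strand. The sort gate was not given there. Of 53471 rows, 6 with a repeated identifier were dropped. Positions and exon lengths came from GENCODE, which held 99.6% of identifiers.

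Counts were tested with edgeR 4.0.16 in R 4.3.3 (robust quasi-likelihood F test, TMM scaling, default expression filter, terms for genotype and code set, 10 residual degrees of freedom, Benjamini-Hochberg adjustment over 11742 genes), with DESeq2 1.42.0 as an alternative. The model was tested on simulated counts. Correlations used log2 CPM with a prior count of 2. The 9 genes, the gene lists and the named-gene rule (every gene of the 9, up to 6 called genes of a list per comparison, and the 3 most alike genes of each called one) were chosen with earlier results of these data known. Genes outside that rule, such as Il7r, Il2ra, Jak1, Il2rb, Stat6, Spry1, Hspa1a, Hspa1b and the uncalled STAT5 targets, were named after their values were seen. Alternatives were other scalings, no filter, legacy mode, no set term, set TS alone, only the genotypes compared, the replicate block and each library left out. Fits of set TY alone, of set TT alone and leaving out Alox5 KO 1, Alox5 KO 2 and St2 KO 1 (low in plasma cell transcripts) were added after the data were seen.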

Additional observations from a re-analysis of the deposited data

How the results depend on the processing

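Of 1422 alternative log2 fold changes of the 9 genes, none reversed a called one, 24 lost a call and 5 gained one, and 71 changed sign where neither value was called. The number of the 9 genes called in St2 KO against WT was 0, and became 2 with DESeq2 and 2 without the code set term. In St2 KO against Il25 KO it was 2, and became 0 in set TS alone and 1 in set TY alone, which hold fewer libraries. In St2 KO against Alox5 KO it was 2, and became 0 in set TS alone, 0 with only those genotypes and 0 when Alox5 KO 1, Alox5 KO 2 and St2 KO 1 were left out together. For any genotype it was 2, and became 0 in set TS alone and 1 when those 3 were left out. With each library left out in turn the counts ranged from 0 to 1 in St2 KO against WT, 2 to 2 against Il25 KO, 0 to 2 against Alox5 KO and 1 to 2 for any genotype, where St2 KO 2 or Il25 KO 3 was the library whose absence gave 1. Counts in the other 3 comparisons stayed at 0 in every alternative run. Same-numbered libraries did not deviate together (3 of 24 pairs had r over 0.1, range -0.08 to 0.20), so the numbers were not taken as pairs, and the replicate block left the number of the 9 genes called at 0 in St2 KO against WT, 2 against Il25 KO and 2 against Alox5 KO, with 173 genes called in all in St2 KO against Il25 KO beside 146 without it. Depth limits Socs3 most, at 5 to 83 counts per library.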
